A study of Danio rerio with 8 samples.

Results

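The 10 genes described here encode proteins of an intestinal absorptive cell, the enterocyte, most of which serve to digest food at its surface or take it up. The others join cells, bundle actin or add sulfonate to small compounds. They were chosen by symbol, as slc6a19b, slc15a1b, mep1a.1, mep1a.2, mep1b, anpepb, fabp2, cdh17, vil1 and sult1st1, among 20958 zebrafish genes that could be named on the array. Each was carried by 1 probe, so the genes account for 10 of the 39749 probes, and all 10 passed the filter on dim probes. The measure of every gene is the log2 intensity of its probe minus the log2 of the array's 75th percentile, called the log2 level below. A log2 level compares pools for 1 gene and does not rank one gene's RNA against another's.

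The enterocyte carries a brush border, a dense lawn of microvilli on the side that faces the gut lumen. Peptidases anchored in that membrane cut proteins into small peptides and amino acids, carriers beside them bring these into the cell, and binding proteins in the cytosol take up the fatty acids that enter. Actin bundlers hold each microvillus upright and cadherins join the cells to one another. The zebrafish has no stomach, and the anterior part of its intestine does most of the absorption of lipid and hydrolysed protein, while a more posterior stretch holds lysosome-rich enterocytes, which engulf intact protein.

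The mutant larvae were pex2-/-, for an allele named typeC in the labels, and were compared with pex2+/+ siblings. Pex2 is a peroxisomal membrane protein that takes part in the import of enzymes into the peroxisome, where very long chain fatty acids are shortened. All larvae were 5 weeks old and were raised under the normal protocol. RNA came from whole bodies, in equal amounts from 3 larvae per pool, with 4 pools of pex2 mutants and 4 pools of wild-type siblings on 1 one-colour array each. Neither sex nor clutch is given in the sources used here, and p-values therefore measure only how pools differ, which may be partly technical. Since the RNA is from whole bodies, a gene that is lower may reflect fewer cells of a type or less RNA per cell, and these cannot be told apart.

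Mutant arrays were dimmer, with a 75th percentile of intensity of 454.1 to 498.7 on the mutant arrays and 610.8 to 838.9 on the sibling arrays (n = 4 each, exact permutation p = 0.0286, two-sided, which is the smallest possible here). The share of probes well above background was 67.3% to 75.6% on the mutant arrays, against 74.5% to 76.3% on the sibling arrays, mutant pool 4 having the lowest. Correlations between arrays over all kept probes were 0.935 to 0.98 among mutants, 0.981 to 0.992 among siblings and 0.861 to 0.93 across genotypes. Precision is limited throughout by the number of arrays. With 0 probes named pex2, the labels could not be set against that transcript.

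The comparison asks which transcripts differ in whole larvae that lack a working pex2 gene. The 10 genes were chosen with earlier results of these data known. The shares below therefore describe them and give no independent support for falls. Of the 10 brush-border and absorption genes, 9 were lower in the pex2 mutants at an adjusted p below 0.05 and 0 were higher, and the median log2 difference was -2.10. Over all 17263 named genes tested, 27.8% were lower at the same threshold, 29.9% were higher, 57.6% were called either way and the median difference was 0.01. Of the 10 genes, 8 were called and at least 2-fold lower, against 12.4% of named genes. The 4 mutant pools lay below all 4 sibling pools for 9 of the 10 genes, against 26.1% of named genes. These 9 include vil1, whose mutant pool 4 was level with the lowest sibling pool. The 9 called lower, the 8 and the 9 without overlap all include mep1a.2, at background in all mutants. That gene passed the filter on dim probes through the sibling arrays alone. Its log2 difference was only -0.33 with normexp background correction, so its place among the 8 depends on the processing. slc15a1b was the gene that did not pass the test.

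The first gene is slc6a19b, which encodes a sodium-coupled carrier of neutral amino acids. Its log2 level was 0.21, 0.30, 0.56 and 1.596 in mutant pools 1 to 4, against 3.57, 3.48, 3.35 and 3.91 in sibling pools 1 to 4. Every mutant pool lay below every sibling pool, with mutant pool 4 nearest to them. The mean was 0.67 ± 0.64 in mutants and 3.58 ± 0.24 in siblings (SD, n = 4 each). The gene fell 7.52-fold (log2 difference -2.91 ± 0.30 SE, adjusted p = 0.000162, limma), with a 95% confidence interval of 4.67-fold to 12.1-fold. Of all named genes, 1.8% fell by more.

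The second carrier, slc15a1b, takes up di- and tripeptides together with protons. Log2 levels of 0.53, 1.38, 1.74 and 1.56 were measured in mutant pools 1 to 4, against 2.202, 2.21, 1.82 and 1.62 in sibling pools 1 to 4. The genotypes overlapped, since mutant pool 3 lay above sibling pool 4. The mean was 1.303 ± 0.54 in mutants and 1.97 ± 0.29 in siblings (SD, n = 4 each), a log2 difference of -0.66 ± 0.27 SE that did not pass (adjusted p = 0.0636, limma). The unadjusted 95% confidence interval of the difference ran from -1.28 to -0.04, a 1.03-fold to 2.43-fold lower level. Normexp background correction brought it past the threshold (log2 difference -0.67, adjusted p = 0.0316), as did leaving out mutant pool 3 (-0.81, adjusted p = 0.0421), while leaving out mutant pool 1 gave -0.41.

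The peptidases come next. Meprins are metalloendopeptidases known from mammals to be built of alpha and beta subunits, of which the beta subunit keeps the complex at the membrane. The alpha subunit gene mep1a.1 had log2 levels of 0.25, 0.55, 1.05 and 1.88 in mutant pools 1 to 4, against 3.61, 3.51, 3.63 and 3.97 in sibling pools 1 to 4. No mutant pool reached the lowest sibling pool. With means of 0.93 ± 0.71 in mutants and 3.68 ± 0.20 in siblings (SD, n = 4 each), mep1a.1 fell 6.71-fold (log2 difference -2.75 ± 0.32 SE, adjusted p = 0.000278, limma).

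Its neighbour in name, mep1a.2, had a dim probe that was well above background on 0 of 4 mutant arrays and on 4 of 4 sibling arrays. Its log2 levels were -6.76, -7.13, -6.31 and -6.86 in mutant pools 1 to 4, against -4.03, -4.16, -3.59 and -3.58 in sibling pools 1 to 4. The mutant values have only a bound, and with the main processing mep1a.2 was at least 2.22-fold lower in mutants. The adjusted p of 5.47e-05 (limma) belongs to the difference as measured, and the bound itself was not tested. For the bound, each mutant array was given the lowest level at which any of its probes was well above background. The probe's own level was used if that was higher. The floor was not measured for this probe itself. Under normexp correction its log2 difference was -0.33 (adjusted p = 0.0152), against -2.92 as measured. The normexp difference is smaller than the bound of 1.15 log2 units, so the bound holds only for the main processing. Whether the probes of mep1a.1 and mep1a.2 also take up RNA of the other gene was not tested.

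The beta subunit gene mep1b, listed in the reference as mep1ba, had log2 levels of -2.12, -0.38, -0.06 and 0.75 in mutant pools 1 to 4, against 2.02, 1.93, 2.03 and 2.30 in sibling pools 1 to 4. Sibling pools were close to one another, while mutant pool 1 lay far below the other mutants. The means were -0.45 ± 1.21 in mutants and 2.07 ± 0.16 in siblings (SD, n = 4 each). mep1b fell 5.75-fold (log2 difference -2.52 ± 0.53 SE, adjusted p = 0.004, limma), and the difference was -1.97 without mutant pool 1 and still passed.

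Aminopeptidase N trims single amino acids from the free end of peptides, and its gene anpepb, anpepb.1 in the reference, had log2 levels of 2.25, 2.42, 2.75 and 3.46 in mutant pools 1 to 4, against 4.43, 4.27, 4.60 and 4.62 in sibling pools 1 to 4. The genotypes did not overlap. Averages of 2.72 ± 0.54 in mutants and 4.48 ± 0.16 in siblings (SD, n = 4 each) gave a 3.38-fold fall (log2 difference -1.76 ± 0.25 SE, adjusted p = 0.000628, limma).

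Inside the cell, fabp2 encodes the intestinal fatty acid-binding protein. In mutant pools 1 to 4 its log2 level was 2.50, 3.91, 4.45 and 5.29, against 6.38, 6.53, 6.56 and 6.45 in sibling pools 1 to 4. The siblings lay within a narrow band and the mutants were spread widely below it. The mean was 4.04 ± 1.17 in mutants and 6.48 ± 0.08 in siblings (SD, n = 4 each), a 5.43-fold fall (log2 difference -2.44 ± 0.51 SE, adjusted p = 0.0039, limma). Without mutant pool 1 the difference was -1.93 and passed.

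Of the structural genes, cdh17 encodes an intestinal cadherin that joins neighbouring epithelial cells. Its probe was spotted 10 times, and the log2 level was 0.69, 0.77, 0.92 and 1.79 in mutant pools 1 to 4, against 2.36, 2.30, 2.59 and 2.40 in sibling pools 1 to 4. All mutant pools lay below all sibling pools. The mean was 1.05 ± 0.50 in mutants and 2.41 ± 0.12 in siblings (SD, n = 4 each), a 2.58-fold fall (log2 difference -1.37 ± 0.23 SE, adjusted p = 0.0015, limma).

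Villin, encoded by vil1, bundles the actin core of the microvillus. The log2 level of vil1 was 2.43, 2.54, 2.94 and 3.812 in mutant pools 1 to 4, against 4.07, 3.85, 4.22 and 3.814 in sibling pools 1 to 4. Mutant pool 4 was level with the lowest sibling pool, and the other mutant pools were below all siblings. vil1 fell 2.08-fold (mean 2.93 ± 0.63 in mutants and 3.99 ± 0.19 in siblings, SD, n = 4 each, log2 difference -1.06 ± 0.29 SE, adjusted p = 0.0136, limma).

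The last gene, sult1st1, encodes a cytosolic sulfotransferase that adds sulfonate to small phenolic compounds. Its log2 level was -1.16, -1.32, -1.39 and -1.10 in mutant pools 1 to 4, against -0.50, -0.50, -0.34 and -0.43 in sibling pools 1 to 4. Both genotypes were tight and did not overlap. A mean of -1.24 ± 0.14 in mutants and -0.44 ± 0.08 in siblings (SD, n = 4 each) gave a 1.74-fold fall (log2 difference -0.80 ± 0.10 SE, adjusted p = 0.000322, limma).

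**Figure D1:**
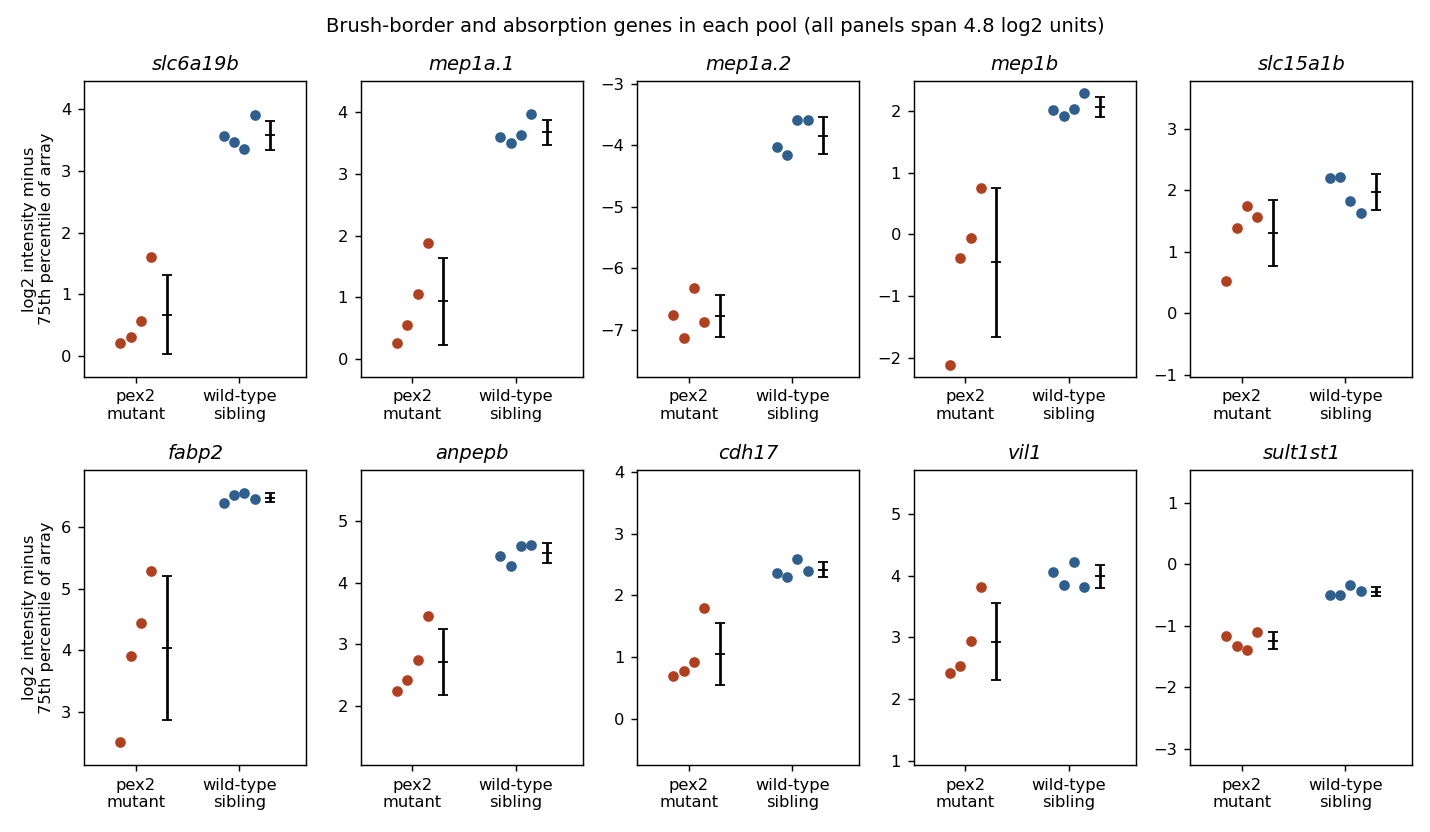
Log2 intensity minus the array's 75th percentile (y axis) of the 10 brush-border and absorption genes in 4 pex2 mutant pools (red, left) and 4 wild-type sibling pools (blue, right), with mean ± SD in black and pools 1 to 4 from left to right. The mutant pools lie below all sibling pools except for slc15a1b, but in vil1 mutant pool 4 is level with the lowest sibling pool. The mutant values of mep1a.2 are not well above background.

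The SD among mutant pools was larger than that among sibling pools for all 10 genes. Arrays over all kept probes also correlated less among mutants (0.935 to 0.98) than among siblings (0.981 to 0.992). The share of all named genes with a larger mutant SD was not counted. Whether the larger spread was particular to the 10 genes was therefore not tested. Relative to the sibling mean of each gene, the log2 level averaged over the 10 genes was -2.55, -2.13, -1.77 and -1.22 in mutant pools 1 to 4, against -0.02, -0.10, 0.05 and 0.07 in sibling pools 1 to 4. Mutant pool 1 was the lowest mutant for 8 of the 10 genes and mutant pool 4 the highest for 8, with mutant pool 3 the highest for the other 2. The replicate numbers are names only, and nothing in the labels orders the pools. For the lowest pool the exceptions were mep1a.2, at background in all mutants, and sult1st1, for which mutant pool 3 was the lowest. For the highest pool they were mep1a.2 and slc15a1b.

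**Figure D2:**
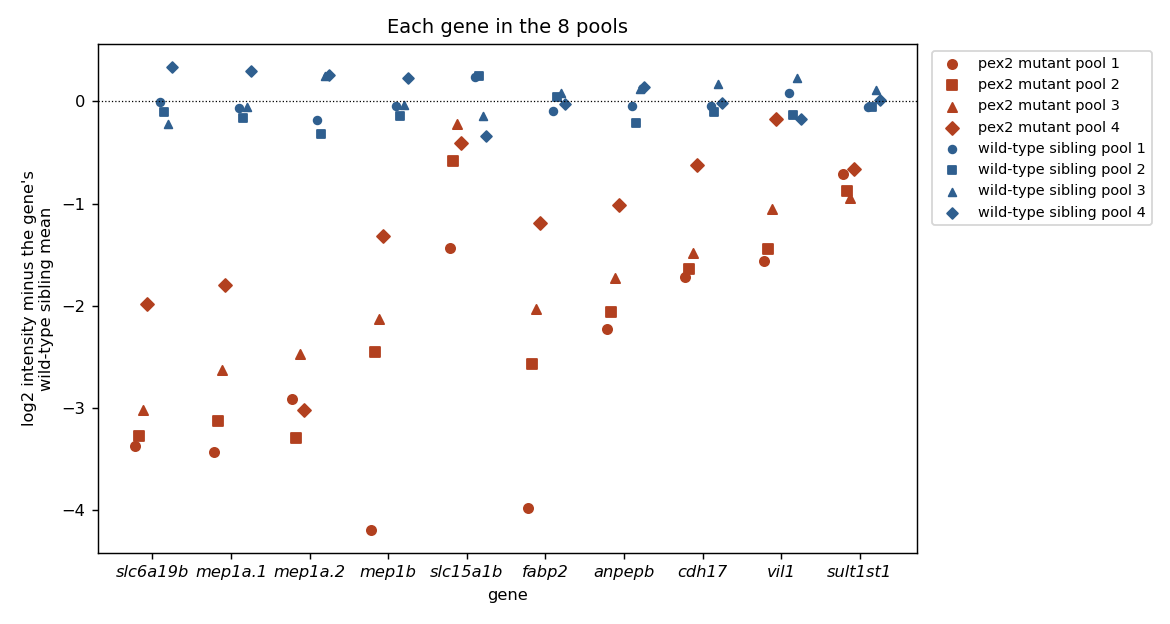
Log2 intensity of each of the 10 genes (x axis) minus that gene's mean over the wild-type sibling pools (y axis), with 1 marker shape per pool number, mutants in red and siblings in blue. Mutant pool 1 (circle) is the lowest mutant for 8 genes and mutant pool 4 (diamond) the highest for 8, while sibling pools stay near 0.

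Whether related genes differed by unequal amounts between genotypes was tested on the log2 ratio of their probes within each array, for 8 pairs, with an exact two-sided permutation of the arrays and Benjamini-Hochberg adjustment over the pairs. The smallest p that 4 against 4 can give is 0.0286. The pairs were chosen with earlier results of these data known, so these p-values give no independent support for unequal falls. Adjusted values also depend on which pairs were chosen. The amino acid carrier and the peptide carrier, whose own difference did not pass, differed unequally between genotypes. The log2 ratio of slc6a19b over slc15a1b was -0.32, -1.08, -1.18 and 0.04 in mutant pools 1 to 4, against 1.37, 1.26, 1.53 and 2.29 in sibling pools 1 to 4, and was lower by 2.25 in mutants (exact p = 0.0286, adjusted 0.0457).

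The ratio of slc6a19b over vil1 varied little among mutants, at -2.22, -2.24, -2.37 and -2.22 in mutant pools 1 to 4, against -0.49, -0.38, -0.87 and 0.10 in sibling pools 1 to 4. It was lower by 1.85 in mutants (exact p = 0.0286, adjusted 0.0457), so the carrier fell by more than the microvillar actin bundler in every mutant pool. The mutant mean was -2.26 ± 0.08 and the sibling mean -0.41 ± 0.40 (SD, n = 4 each).

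The ratio of slc15a1b over fabp2 was higher by 1.78 in mutants, with a mean of -2.74 ± 0.73 in mutants and -4.51 ± 0.31 in siblings (SD, n = 4 each, exact p = 0.0286, adjusted 0.0457). The endopeptidase gene mep1a.1 fell by more than the aminopeptidase gene anpepb, the ratio averaging -1.79 ± 0.18 in mutants and -0.80 ± 0.13 in siblings (SD, n = 4 each, difference -0.99, exact p = 0.0286, adjusted 0.0457). The cadherin cdh17 fell by slightly more than vil1, with a ratio of -1.88 ± 0.16 in mutants and -1.58 ± 0.12 in siblings (SD, n = 4 each, difference -0.31, exact p = 0.0286, adjusted 0.0457). This last call was lost with normexp correction (-0.27, adjusted p = 0.098). The pairs of different probes say only that the differences were unequal.

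The meprin subunits mep1a.1 and mep1b did not show unequal falls. Their ratio averaged 1.39 ± 0.66 in mutants and 1.61 ± 0.04 in siblings (SD, n = 4 each), a difference of -0.22 (exact p = 0.657, adjusted 0.751). Mutant pool 1 stood at 2.37 and mutant pools 2 to 4 between 0.93 and 1.12, on either side of the siblings at 1.58 to 1.67. Both pairs with mep1a.2 missed the threshold (adjusted p 0.771 against mep1a.1 and 0.724 against mep1b), and they carry no size since mep1a.2 has only a bound in mutants. With normexp correction both changed sign and passed (-2.40 for mep1a.1 over mep1a.2 and 1.99 for mep1a.2 over mep1b, adjusted p 0.0381 each).

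**Figure D3:**
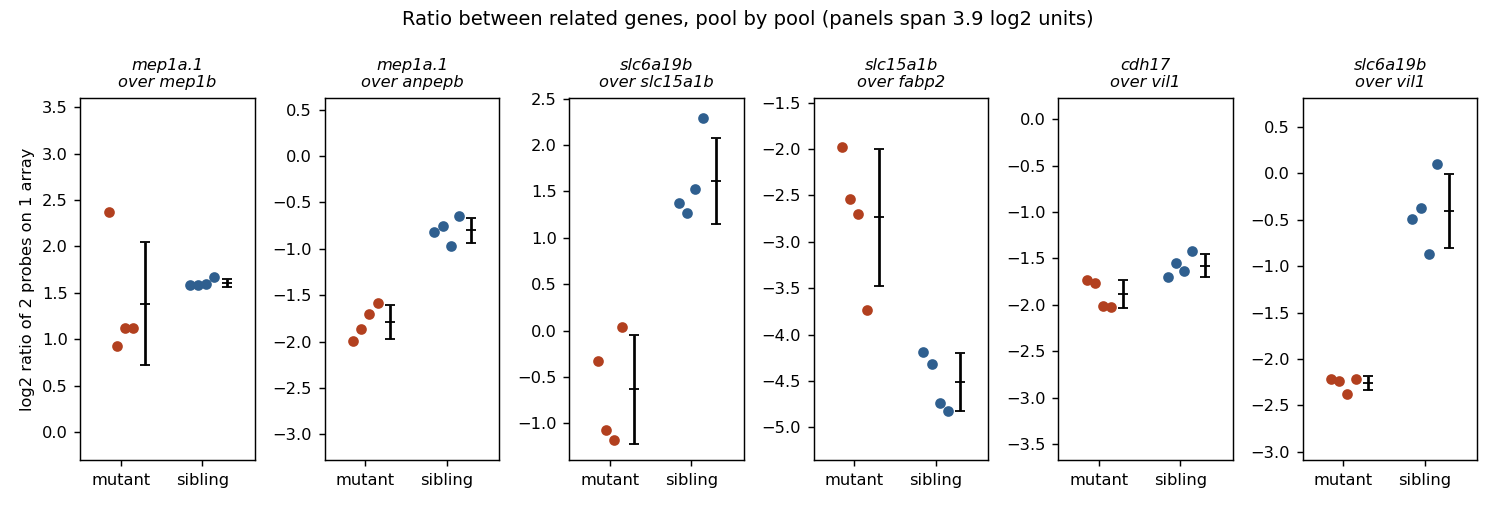
Log2 ratio of the probes of 2 genes on the same array (y axis) for 6 of the 8 pairs, in 4 pex2 mutant pools (red, left) and 4 wild-type sibling pools (blue, right), with mean ± SD in black. The ratio of slc6a19b over vil1 lies between -2.37 and -2.22 in mutants, below all siblings, while mep1a.1 over mep1b overlaps between the genotypes.

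Genes related by name or family to the 10 were looked up next. Of 27 such genes, 21 had a tested probe, and of these 15 were lower in mutants and 1 was higher. Over all named genes, 27.8% were lower and 29.9% higher. Many of the related genes stand again on the lists described below, so these counts are not separate from those. The related genes were chosen once the gene table was at hand, so the counts give no independent support for falls in these families. The carrier slc6a18, a relative of slc6a19b, fell 2.57-fold (log2 difference -1.36 ± 0.35 SE, adjusted p = 0.0111, limma). Of the other 2 slc6a19 copies, slc6a19a.1 had a log2 difference of -0.85 ± 0.37 SE that did not pass (adjusted p = 0.0772, well above background on 3 of 4 mutant arrays), and slc6a19a.2 was higher at 0.53 ± 0.20 SE (adjusted p = 0.0495). This rise lay close to the threshold, and mutant pool 4, at -3.46, was within the range of the sibling pools (-3.50 to -3.37). The peptide carrier slc15a2, known for kidney and brain in mammals, fell 2.87-fold (adjusted p = 0.00161), while slc15a1b did not pass.

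The second beta meprin gene, mep1bb, had log2 levels of -1.76, -2.83, -1.42 and -1.30 in mutant pools 1 to 4, against 0.02, 0.82, 0.25 and 0.54 in sibling pools 1 to 4. It fell 4.71-fold (log2 difference -2.24 ± 0.34 SE, adjusted p = 0.000854, limma). Among aminopeptidases, anpeplb fell 3.06-fold (adjusted p = 0.00136) and enpep, which removes acidic residues, fell 2.82-fold (adjusted p = 0.00257). The copy anpepa had a log2 difference of -0.34 ± 0.18 SE that did not pass (adjusted p = 0.136).

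Fatty acid-binding proteins made the widest range. The gene fabp1b.2 fell 12.7-fold (log2 difference -3.66 ± 0.75 SE, adjusted p = 0.00358, limma), with 1.12, -1.54, 1.05 and -1.71 in mutant pools 1 to 4, against 3.30, 4.30, 2.47 and 3.50 in sibling pools 1 to 4. Falls were also called for fabp1a (log2 difference -2.93 ± 0.54 SE), for fabp1b.1 (-1.93 ± 0.51 SE) and for fabp6 (-2.30 ± 0.63 SE), which binds bile acids. The liver form fabp10a did not pass (0.18 ± 0.16 SE, adjusted p = 0.352). Mutant pools did not keep one order within the family: fabp1b.1 was lowest in mutant pool 1 at 2.41, like fabp2, and fabp6 was lowest in mutant pool 2 at 2.78.

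Of the villin relatives, avil fell 2.04-fold (adjusted p = 0.00135, limma) and vill had a log2 difference of -0.33 ± 0.19 SE that did not pass (adjusted p = 0.165). In the sulfotransferase 1 family, sult1st2 had the largest fall, 4.63-fold (log2 difference -2.21 ± 0.40 SE, adjusted p = 0.0019). Falls were also called for sult1st4 (-1.27 ± 0.36 SE), sult1st3 (-0.59 ± 0.17 SE) and sult1st6 (-0.29 ± 0.11 SE). sult1st7 was called too (adjusted p = 0.000551), with 1 mutant array well above background. sult1st5 did not pass (-0.10 ± 0.20 SE, adjusted p = 0.696).

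**Figure D4:**
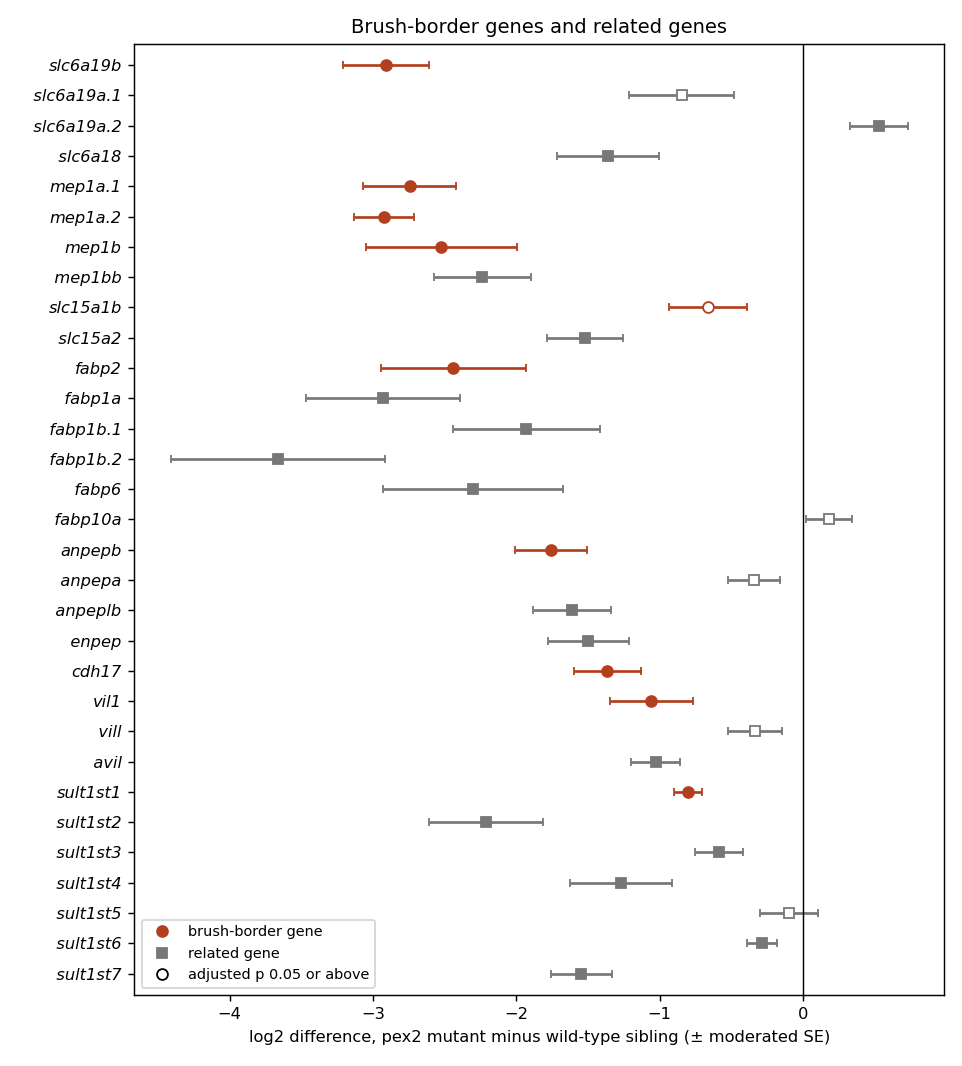
Log2 difference, pex2 mutant minus wild-type sibling, with the moderated SE as bars (x axis), of the 10 genes (red circles) and 21 related genes below each of them (grey squares). Open symbols did not pass an adjusted p of 0.05, the symbol of mep1a.2 is the measured difference and not its bound, and slc6a19a.2 is the only related gene called higher.

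The wider functions of the absorptive cell were described with lists of pathway genes, none of which holds any of the 10. The lists, like the 10 genes, were chosen with earlier results of these data known, and some genes stand on more than 1 list. Their shares are to be read against the 27.8% lower and 29.9% higher over all named genes. In the brush-border hydrolase list the median log2 difference was -1.50, with 1 of 27 tested genes higher (3.7%) and 2 not called. It had the highest share of falls, at 24 genes (88.9%). The largest was enpp7.1, an alkaline sphingomyelinase that digests dietary sphingolipid, at -3.04, -2.20, -1.74 and 0.32 in mutant pools 1 to 4, against 2.93, 2.63, 3.23 and 3.11 in sibling pools 1 to 4. It fell 25.0-fold (log2 difference -4.64 ± 0.63 SE, adjusted p = 0.000493, limma).

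Its copy enpp7.2 was also called lower (adjusted p = 0.00133), but was well above background on 1 of 4 mutant arrays, so no size is given. The neutral ceramidase gene asah2 was at least 2.76-fold lower in mutants (adjusted p = 9.82e-05 for the measured difference), having been well above background on 0 mutant arrays. The intestinal alkaline phosphatase gene alpi.2 fell 7.32-fold (log2 difference -2.87 ± 0.49 SE, adjusted p = 0.00143). The exception was tmprss2, a membrane serine protease, which was higher by 0.37 ± 0.11 SE (adjusted p = 0.0218), a call lost without sibling pool 1 or 4. The list also held cel.1, cel.2 and pla2g1b, lipases known as secretions of the pancreas, and amn1, which is no brush-border enzyme, and these were among the falls.

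Of 37 transporter genes, 19 were lower (51.4%), 8 higher (21.6%) and 10 not called, and the median log2 difference was -0.85. The sodium-glucose carrier gene slc5a1 had log2 levels of 0.08, 0.75, 0.93 and 2.40 in mutant pools 1 to 4, against 3.67, 3.60, 3.85 and 4.05 in sibling pools 1 to 4. It fell 6.74-fold (log2 difference -2.75 ± 0.43 SE, adjusted p = 0.00102, limma). Larger falls were called for the nucleoside carrier slc28a1 (-3.74 ± 0.52 SE, well above background on 3 of 4 mutant arrays), the apical bile acid carrier slc10a2 (-3.13 ± 0.37 SE) and the dicarboxylate carrier slc13a2 (-2.84 ± 0.37 SE).

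The largest rises on that list were in genes whose products are known from the basolateral side, which faces the blood. slc51a, a subunit of a bile acid exporter, was higher by 1.75 ± 0.16 SE (adjusted p = 0.0001). It stood at 3.31, 2.98, 3.00 and 3.49 in mutant pools 1 to 4, against 1.19, 1.38, 1.52 and 1.68 in sibling pools 1 to 4, with no overlap. slc7a8b, an amino acid exchanger, was higher by 1.64 ± 0.19 SE (adjusted p = 0.000276). Both are used in other organs as well, and their source in the whole body was not tested.

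Of 43 microvillus and junction genes, 29 were lower (67.4%), 3 higher (6.98%) and 11 not called (median -0.67). The count higher was 5 with normexp correction. The intermicrovillar protocadherin gene cdhr5b was at least 2.82-fold lower in mutants (adjusted p = 0.000223 for the measured difference), with 0 mutant arrays well above background. pdzk1, a scaffold under the apical membrane, fell 6.08-fold (log2 difference -2.60 ± 0.37 SE, adjusted p = 0.000592), and tmigd1 fell 5.06-fold (adjusted p = 0.00911). Among the tight junction claudins tested on the list, cldn15la fell 4.74-fold (log2 difference -2.25 ± 0.36 SE). Only cldn15lb was higher, by 0.94 ± 0.22 SE (adjusted p = 0.00739), and the other claudins were called lower. The rise of ush1ga (0.86 ± 0.31 SE, adjusted p = 0.0391) was lost on leaving out any of 7 of the pools.

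Of 37 genes of dietary lipid uptake and re-esterification, 16 were lower (43.2%), 4 higher (10.8%) and 17 not called (median -0.52). After fabp1b.2, the largest falls were in lratb.2, which esterifies retinol (-3.09 ± 0.49 SE, adjusted p = 0.00104, well above background on 3 of 4 mutant arrays), in the fatty acid receptor gene cd36 (-2.47 ± 0.40 SE, adjusted p = 0.00114) and in mogat2, which rebuilds diacylglycerol (-2.32 ± 0.43 SE, adjusted p = 0.00227). cd36 had 1.27, 2.23, 2.36 and 3.50 in mutant pools 1 to 4, against 4.71, 4.87, 4.83 and 4.85 in sibling pools 1 to 4. The transcription factor gene creb3l3a was higher by 0.88 ± 0.23 SE (adjusted p = 0.0109). The sterol acyltransferase gene soat1 was higher by 0.71 ± 0.12 SE in its brightest probe (adjusted p = 0.0012), but the mean of its probes gave -0.14 (adjusted p = 0.645).

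Sulfotransferases and enterocyte detoxification genes had 23 of 38 lower (60.5%), 4 higher (10.5%) and 11 not called (median -0.70). Falls were called for the efflux pump gene abcg2b (-2.77 ± 0.31 SE, adjusted p = 0.000232), for the glutathione transferase gene gstp1.1 (-2.47 ± 0.18 SE, adjusted p = 5.53e-05) and for sult3st5 (-2.59 ± 0.76 SE, adjusted p = 0.0182). abcg2b and sult3st5 were well above background on 3 of 4 mutant arrays each. papss1, which makes the sulfonate donor for these enzymes, was higher by 1.07 ± 0.22 SE (adjusted p = 0.00355), and sult4a1, a sulfotransferase known from mammalian brain, was higher by 0.78 ± 0.12 SE (adjusted p = 0.00103).

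Of 33 transcription factors of the intestine, 9 were lower, 9 higher and 15 not called, and the median log2 difference was 0.15. The shares of 27.3% lower and 27.3% higher are near the 27.8% and 29.9% over all named genes. Among them, the caudal factor gene cdx1b stood at -3.64, -4.38, -3.16 and -2.16 in mutant pools 1 to 4, against -1.71, -1.45, -1.36 and -1.71 in sibling pools 1 to 4. This is a 3.43-fold fall (log2 difference -1.78 ± 0.41 SE, adjusted p = 0.0065, limma), and cdx4, a caudal gene also used along the body axis, fell 3.37-fold (adjusted p = 0.00222). klf4 and cebpa were lower as well (adjusted p 0.0142 and 0.000335), on 2 mutant arrays each above background, and both calls were lost with normexp correction (adjusted p 0.0742 and 0.0614). The vitamin D receptor genes vdra and vdrb were higher by 1.19 ± 0.13 SE and 1.08 ± 0.24 SE (adjusted p 0.000212 and 0.00533).

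**Figure D5:**
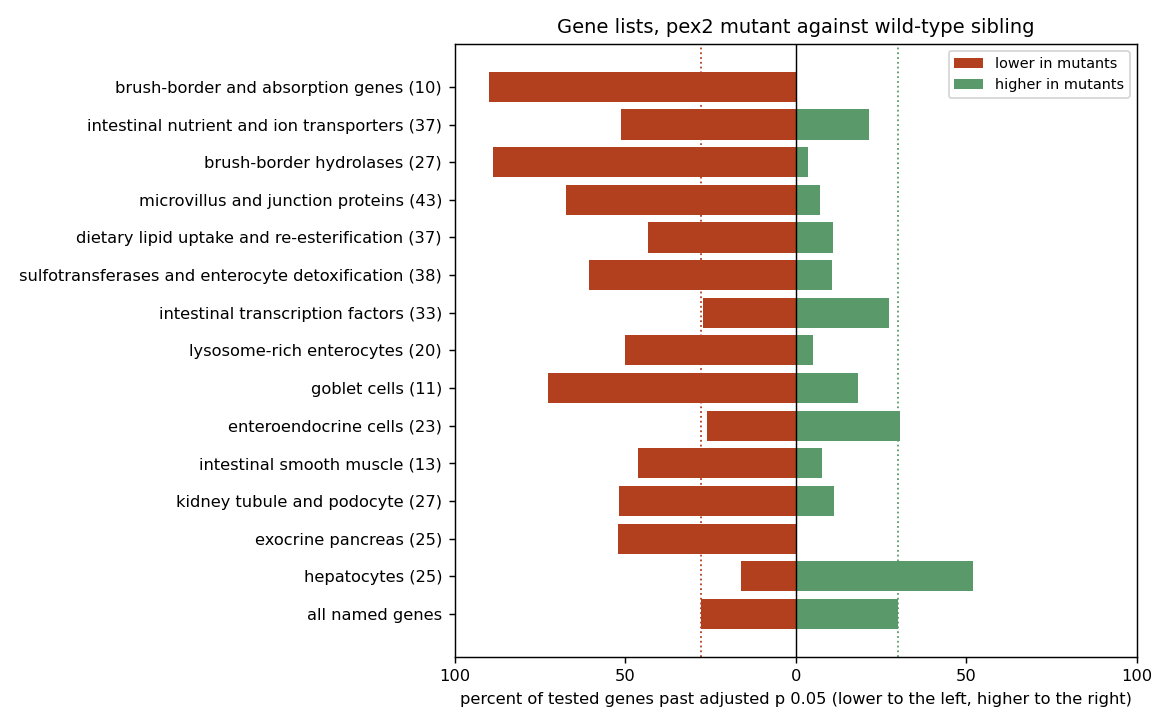
Percent of the tested genes of each list (count in brackets) called lower (red, to the left) or higher (green, to the right) in pex2 mutants than in wild-type siblings at an adjusted p of 0.05. Dotted lines mark the 27.8% lower and 29.9% higher over all named genes, and the hydrolases come closest to the 90% lower of the 10 genes.

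Markers of other cells of the gut are given beside the 10 genes, to be read against the 27.8% lower and 29.9% higher over all named genes. Of 20 tested lysosome-rich enterocyte markers, 10 were lower and 1 higher, and the mean log2 level of the list ranged from 0.34 to 1.62 over mutant pools and from 2.02 to 2.13 over sibling pools. The bile acid genes slc10a2 and fabp6 led that list, and both stand on pathway lists as well. Of the others, amn (-1.91 ± 0.66 SE, adjusted p = 0.0359, limma) and dab2 (-1.71 ± 0.36 SE, adjusted p = 0.00413) were lower. cubn (-1.19 ± 0.54 SE, adjusted p = 0.0915) and lrp2b (-1.42 ± 0.56 SE, adjusted p = 0.056) were among the 9 not called. The exception was lrp2a, an endocytic receptor also used in kidney, which was higher by 0.58 ± 0.17 SE (adjusted p = 0.0169). Of 11 goblet cell markers, 8 were lower and 2 higher, with the gel-forming mucin gene muc5.1 4.39-fold lower (adjusted p = 0.0001) and muc13b 3.95-fold lower (adjusted p = 0.0012). The goblet list ranged from -1.22 to -0.75 over mutant pools and from -0.14 to 0.05 over sibling pools. The listed genes muc2.1 and spdef were not tested, the former having no named probe and the latter falling below the filter. Where in the whole body muc5.1 and muc13b were expressed was not tested. The rise of b3gnt7 on that list (0.88 ± 0.32 SE, adjusted p = 0.0407) was lost on leaving out mutant pool 3 or any sibling pool.

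Of 23 enteroendocrine markers, 6 were lower and 7 higher, shares of 26.1% and 30.4% that are near those over all named genes (mean level -1.37 to -0.90 over mutant pools and -0.93 to -0.77 over sibling pools). The peptide gene insl5a fell 17.3-fold (adjusted p = 5.06e-05, well above background on 3 of 4 mutant arrays). Its relative in name, insl5b, was at least 4.55-fold lower (adjusted p = 6.4e-05 for the measured difference). By contrast pax6b, a factor shared with brain and eye, was higher by 1.56 ± 0.13 SE. Of 13 smooth muscle markers, 6 were lower and 1 higher (-1.14 to -0.72 over mutant pools and -0.26 to 0.01 over sibling pools), including the smooth muscle myosin gene myh11a, 2.54-fold lower (adjusted p = 8.14e-05), and desmb (adjusted p = 0.00041), which was well above background on 2 of 4 mutant arrays. cnn1b was the one that was higher (0.51 ± 0.10 SE).

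Other organs that express some brush-border genes were covered by further lists. Of 27 kidney markers, 14 were lower and 3 higher (-1.91 to -1.62 over mutant pools and -1.21 to -0.99 over sibling pools). The count lower was 9 with the filter on all 8 arrays, and the count higher was 5 without mutant pool 4. kcnj1a.3, a tubule potassium channel gene, was at least 2.58-fold lower and clcnk 5.70-fold lower (adjusted p = 0.00108, well above background on 3 of 4 mutant arrays), while pax2a was higher by 1.13 ± 0.11 SE. Of 25 exocrine pancreas markers, 13 were lower and 0 higher (3.01 to 4.36 over mutant pools and 4.81 to 5.19 over sibling pools), led by sycn.1 (10.9-fold) and cela1.2 (9.35-fold), but without sibling pool 2 the count was 8. Hepatocyte markers went the other way, with 4 of 25 lower and 13 higher (3.89 to 4.35 over mutant pools and 3.94 to 4.24 over sibling pools). fga, a fibrinogen gene, was higher by 1.50 ± 0.19 SE, and the falls there were led by hpxa (adjusted p = 0.000504, well above background on 2 of 4 mutant arrays) and serpina1l (-1.33 ± 0.25 SE).

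The lists did not rank the mutant pools alike. Relative to its sibling mean, the hydrolase list stood at -2.08, -1.90, -1.53 and -1.13 in mutant pools 1 to 4, in the same order as the 10 genes. The transporter, dietary lipid and sulfotransferase lists had that order too. So did the enteroendocrine markers (-0.50, -0.28, -0.19 and -0.04) and the transcription factors (-0.25, -0.09, -0.06 and -0.02). The transcription factors spread less over mutant pools than over sibling pools (-0.18 to 0.09), so their order says little. Microvillus and junction genes did not keep the order, at -0.87, -0.94, -0.69 and -0.50, lowest in mutant pool 2. The order was therefore not shared by all lists of the absorptive cell, and the enteroendocrine markers had it as well. Lysosome-rich enterocyte markers stood at -0.61, -1.74, -0.46 and -0.91, lowest in mutant pool 2. Exocrine pancreas markers stood at -2.04, -0.70, -0.83 and -0.97, lowest in mutant pool 1, and smooth muscle markers at -0.95, -0.60, -0.63 and -1.02, lowest in mutant pool 4. The part of these other cell types in the falls of the 10 genes was not tested.

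The genes whose pool-to-pool pattern was most like that of the 10 were found by Pearson correlation with the mean of the 9 genes well above background on all 8 arrays, after each genotype's mean was subtracted. Among 13252 candidate genes the median r was 0.149 and the 95th percentile 0.832. High values are therefore common with 8 arrays, and they rest mostly on the spread of the mutants. The 10 highest were aqp8a.2 (0.992), wbp2 (0.992), ugt5b2 (0.992), chia.1 (0.99), neu3.3 (0.987), cgref1 (0.986), aoc1 (0.985), malrd1 (0.985), csnk1e (0.985) and cd36 (0.982).

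Likeness among pools did not imply a difference between genotypes. The aquaporin gene aqp8a.2 fell by 2.35 on the log2 scale (± 0.51 SE, adjusted p = 0.00488, limma), the amine oxidase gene aoc1 fell by 2.31 (± 0.48 SE, adjusted p = 0.00411) and the chitinase gene chia.1 fell by 1.80 (± 0.60 SE, adjusted p = 0.03). Smaller falls were called for malrd1 (-1.21), cgref1 (-1.08) and ugt5b2 (-0.50). wbp2 and neu3.3 did not pass (adjusted p 0.127 and 0.795), and csnk1e was higher by 0.76 ± 0.12 SE (adjusted p = 0.00113).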

How the data were processed

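Per the file headers, each spot's deposited intensity had its background corrected in Agilent Feature Extraction 10.7.3.1 (protocol GE1_107_Sep09). A deposited matrix of log2 values matched log2 intensity scaled to the 75th percentile and centred on each probe's median (99.4% to 99.5% of values within 0.01 per array, column medians -0.09 to 0.17). This settled its scale, centring and direction, and it served as an alternative. All arrays lay on 1 slide scanned once, each row holding 2 pools of each genotype.

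Of 61657 spots that were not controls, 1099 outlier readings over the 8 arrays were dropped and 0 were saturated. Log2 spot values were averaged per probe, and the array's 75th percentile over probes was subtracted. A probe was kept, as 29935 of 39749 were, if 4 or more of the 8 arrays had it well above background. Accessions were named through a RefSeq table of GRCz12tu, which named 61.8% of probes. Coordinates are left out, since the array grid is of the older build danRer7. Each gene took the values of its brightest probe.

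Genotypes were compared with limma 3.58.1 (lmFit, eBayes, two-sided) in R 4.3.3, with Benjamini-Hochberg adjustment over all kept probes at 0.05. The fit was also run on simulated data with independent normal noise, equal spread in both genotypes and few changed probes. These settings differ from the data here, and no result rests on that run. The 10 genes, the 13 lists, the pairs and the related genes were chosen with earlier results of these data known, the related genes once the gene table was at hand. Text names the 10 genes, in each pathway list the 4 largest called falls and 2 largest called rises, in each marker list 2 falls and 1 rise, and the 10 genes of highest likeness, besides the related genes. cel.1, cel.2, pla2g1b and amn1 were named after their values were seen. Normexp used spot medians in place of means, which the files used here do not hold. Alternatives were other background, scaling, filter, outlier, fit and probe settings, a replicate block, a slide-row block and each pool left out. Replicate numbers do not pair the pools by label, and the deviations of same-numbered pools correlated at 0.183, 0.0979, -0.0231 and -0.0246.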

Additional observations from a re-analysis of the deposited data

How the results depend on the processing

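The falls of slc6a19b, mep1a.1, mep1b, fabp2, anpepb, cdh17, vil1 and sult1st1 kept their direction and passed under every alternative run at adjusted p 0.05, with the largest adjusted p, 0.0404, for vil1. The number of the 10 genes past the threshold was 8 to 10 over the processing alternatives and 9 to 10 with 1 pool left out. Leaving out 1 pool at a time moved the log2 difference between -3.22 and -2.76 for slc6a19b, between -0.81 and -0.41 for slc15a1b, between -2.93 and -1.97 for mep1b, between -2.86 and -1.93 for fabp2 and between -1.35 and -0.89 for vil1. Under normexp correction with an offset of 50, slc15a1b passed (-0.67), and the ratio of cdh17 over vil1 no longer did (-0.27). There mep1a.2 differed by only -0.33, and the pairs with it changed sign and passed, at -2.40 for mep1a.1 over mep1a.2 and 1.99 for mep1a.2 over mep1b (adjusted p 0.0381 each). Microvillus and junction genes had 5 higher there. mep1a.2 was not tested where all 8 arrays had to be above background. soat1 changed sign to -0.14 with the mean of its probes. The kidney list had 9 genes lower with the filter on all 8 arrays, and 5 higher without mutant pool 4. Counts of higher genes also moved from 1 hydrolase to 0 or 2, from 2 goblet markers to 1 and from 4 lipid genes to 2 under single alternatives. With the replicate number as a block, 9 of the 10 genes passed and vil1 had an adjusted p of 0.0274; no call among the 10 changed, and the pairs were not refitted under it. Probes past the threshold numbered 15515 to 18862 over the processing alternatives and 15557 to 18161 with 1 pool left out. Causes were not tested. Dim signal limits mep1a.2, asah2, cdhr5b, insl5b and kcnj1a.3, which have only bounds, computed with the main processing. Adjusted p-values given beside bounds belong to the measured differences.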
